A study of Mus musculus with 10 samples.

Results

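The genes examined were those of the myeloid C-type lectin receptors, a family of surface proteins with which phagocytes bind sugars and lipids of fungi and mycobacteria and debris of dying cells. The family was given as 7 genes (Clec4d, Clec4e, Clec4n, Clec4a2, Clec5a, Clec7a and Clec12a), and a gene's values came from the probe sets whose single gene symbol in the platform annotation was its own. By this rule 6 of the 7 genes had 9 probe sets, and all 6 were among the 14581 genes tested. Clec12a, which encodes an inhibitory receptor, had none by the annotation used here and was not analysed. Clec4e, Clec4n and Clec4a2 had 2 probe sets each. The probe set with the highest mean over the 10 arrays stood for the gene and the other served as a check. Those used were 1420804_s_at (Clec4d), 1420330_at (Clec4e), 1419627_s_at (Clec4n), 1421366_at (Clec5a), 1420699_at (Clec7a) and 1422013_at (Clec4a2).

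The cells were leukaemic bone marrow cells of mice with acute promyelocytic leukaemia (APL), a disease in which a PML-RARα fusion protein holds myeloid cells at the promyelocyte stage. The series names them as PML-RARα transgenic, and the transgene's promoter is not stated in the labels. Cells of FVB N/J mice aged 8 to 10 weeks were marked with GFP by a retrovirus, expanded in syngeneic recipients and sorted from their marrow by flow cytometry as GFP-positive cells of the subsets SC, PD and TD, names that the labels do not spell out. SC, PD and TD are the untreated groups, while RAPD and RATD are the PD and TD subsets from marrow exposed to all-trans retinoic acid (ATRA), the drug that drives APL cells to mature by binding RARα. ATRA was given at 10 mg/kg, for 5 days by the treatment protocol and for 3 to 5 days by the source names. Each group had 2 arrays, labelled as biological replicates; whether they came from separate mice is not stated, so p-values measure the spread between these samples.

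Most receptors of this family signal through tyrosine motifs. Clec7a, the receptor for fungal β-glucan, carries its own activating motif. Clec4n, which binds mannans, and the mycobacterial glycolipid receptors Clec4d and Clec4e pair with the Fc receptor γ chain (Fcer1g), and Clec5a pairs with DAP12 (Tyrobp). These adaptors recruit the kinase SYK, which acts through CARD9, BCL10 and MALT1 on NF-κB. Clec4a2 carries an inhibitory motif that recruits phosphatases such as SHP-1 (Ptpn6). In normal marrow Clec7a, Clec4n, Clec4d, Clec4e and Clec5a are known from monocytes, and several of them also from macrophages, dendritic cells or neutrophils.

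Levels are log2 signals as deposited, and a difference is that of 2 group means ± the SE of the fit. A gene was called where limma's two-sided test gave an adjusted p under 0.05 (Benjamini-Hochberg over all genes tested). The 40th percentile of an array's log2 signal (4.81 to 5.12) was taken as the dim-signal level, and the brighter probe set of each of the 6 genes lay above it on all 10 arrays. Arrays of a group agreed unequally: over bright genes the SD of the difference between the 2 arrays was 0.158 for SC, 0.256 for TD, 0.305 for PD, 0.467 for RATD and 0.503 for RAPD. RATD replicate 1 lay nearer to the TD arrays (SD 0.312 and 0.309) than to RATD replicate 2, and RATD replicate 2 lay nearer to RAPD replicate 1 (0.45) than to RATD replicate 1. The promyelocyte marker Mpo stood between 13.33 and 15.32 and Elane between 12.46 and 14.88 on the 10 arrays, and the monocyte markers Ccr2 and Csf1r were above the dim-signal level on every array too. In bulk RNA, fewer cells of a type and less RNA per cell cannot be told apart.

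Across the 5 groups, all 6 measured receptor genes were called by limma's moderated F test, against 40.1% of the 14581 genes, and this held with each array left out in turn. They did so in unlike ways. Clec7a and Clec4n were far higher in TD and RATD than elsewhere, Clec4d and Clec4e were far lower in RAPD than elsewhere, Clec5a moved over a narrower range with its lowest level in PD, and Clec4a2 was lowest in SC and highest in the ATRA-treated groups. The range of group means was 6.39 for Clec4n, 5.45 for Clec4d, 5.11 for Clec7a, 4.52 for Clec4e, 1.76 for Clec5a and 1.51 for Clec4a2.

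**Figure D1:**
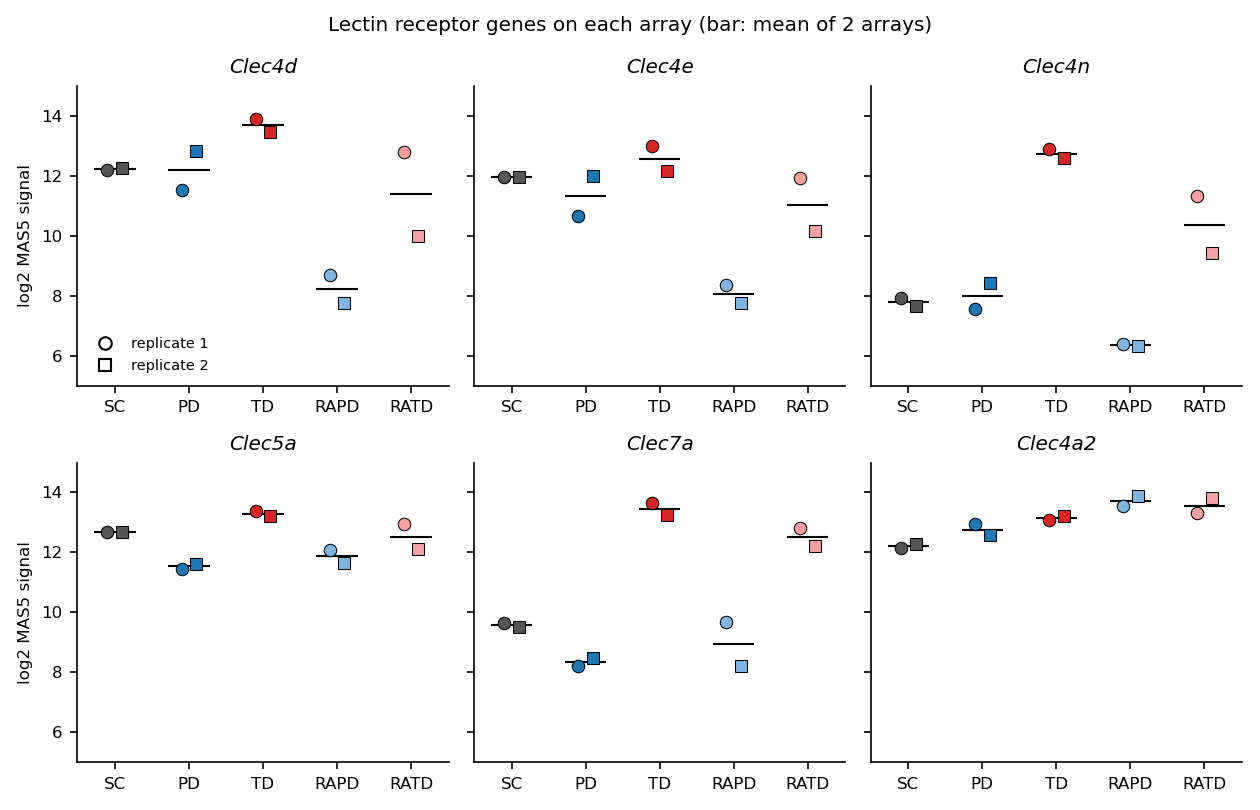
Log2 MAS5 signal (y axis) of the 6 lectin receptor genes in the 5 groups (x axis); circles are replicate 1, squares replicate 2 and bars the mean of the 2 arrays. The TD arrays hold the highest values of Clec7a and Clec4n (12.59 to 13.65), and the RAPD arrays the lowest of Clec4d and Clec4e (7.76 to 8.70).

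The stretch before the transcription start is shown for 4 genes: Clec7a, one of the genes high in TD, Clec4d and Clec4e, the pair low in RAPD, and Clec4a2, which was higher in RAPD than in PD. Promoter entries were matched for 6 of the 7 genes, without Clec4n. Each line gives the 250 bases before the start (RefSeq, GRCm38.p6), 5′ to 3′ on the gene's strand, with capitals marking matches on either strand to GAGGAA, a purine box of the kind bound by the myeloid factor PU.1, or to TTGCNNAA, a sequence of the C/EBP type.
Clec7a, chr6:129472780-129473029, minus strand: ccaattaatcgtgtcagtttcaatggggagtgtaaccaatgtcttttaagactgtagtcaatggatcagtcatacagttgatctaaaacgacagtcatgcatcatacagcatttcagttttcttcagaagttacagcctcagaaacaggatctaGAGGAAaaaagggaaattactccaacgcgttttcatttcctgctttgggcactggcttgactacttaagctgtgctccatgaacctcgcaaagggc
Clec4d, chr6:123261857-123262106, plus strand: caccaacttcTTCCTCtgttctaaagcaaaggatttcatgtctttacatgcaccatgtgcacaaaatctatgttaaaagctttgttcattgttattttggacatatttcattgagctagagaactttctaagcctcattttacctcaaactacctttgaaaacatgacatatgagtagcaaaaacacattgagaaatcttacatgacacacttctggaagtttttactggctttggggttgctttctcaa
Clec4e, chr6:123289872-123290121, minus strand: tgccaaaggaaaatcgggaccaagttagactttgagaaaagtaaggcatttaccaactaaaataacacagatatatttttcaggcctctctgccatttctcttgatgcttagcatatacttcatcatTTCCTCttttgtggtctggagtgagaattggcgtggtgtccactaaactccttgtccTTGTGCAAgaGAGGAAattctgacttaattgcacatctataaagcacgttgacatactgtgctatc
Clec4a2, chr6:123122440-123122689, plus strand: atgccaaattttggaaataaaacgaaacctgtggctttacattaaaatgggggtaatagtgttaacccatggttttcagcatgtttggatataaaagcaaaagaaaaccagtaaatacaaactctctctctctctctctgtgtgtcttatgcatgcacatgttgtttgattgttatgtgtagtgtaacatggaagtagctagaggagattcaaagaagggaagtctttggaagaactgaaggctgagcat
Clec7a and Clec4d each held 1 match to GAGGAA, Clec4e held 2 and a match to TTGCNNAA 66 bases before the start, and Clec4a2 held neither. Over 27025 promoters of the same length, 23.1% held GAGGAA and 9.55% held TTGCNNAA. AGGTCA, a sequence of the kind bound by retinoid receptors (13.8% of promoters), and TGANTCA, the AP-1 site (6.87%), were also searched on both strands and had no match in these 4 windows. A match describes letters and not binding.

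Clec7a, the β-glucan receptor with its own activating motif, showed the clearest split by subset. Its log2 signal was 9.65 and 9.52 in SC, 8.21 and 8.48 in PD, 13.65 and 13.24 in TD, 9.68 and 8.20 in RAPD and 12.82 and 12.22 in RATD. The 4 arrays of the TD subset, treated or not, lay above the other 6. TD exceeded PD by 5.11 ± 0.38 (34.4-fold, adjusted p = 1.77e-05) and SC by 3.86 ± 0.38 (14.6-fold, adjusted p = 0.000107), and RATD exceeded RAPD by 3.58 ± 0.38 (12.0-fold, adjusted p = 0.000725). In the order of levels TD stood first, then RATD, SC, RAPD and PD. The step from RATD to SC (2.94 ± 0.38, adjusted p = 0.000894) was called, and the steps between the other neighbours were not.

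Clec4n, the mannan receptor that signals through Fcer1g, was likewise highest in TD. Its signal was 7.94 and 7.67 in SC, 7.56 and 8.44 in PD, 12.91 and 12.59 in TD, 6.39 and 6.34 in RAPD and 11.33 and 9.43 in RATD. The TD arrays lay above all others, the RAPD arrays below all others, and the RATD arrays between. TD exceeded SC by 4.94 ± 0.48 (30.7-fold, adjusted p = 0.000103) and PD by 4.75 ± 0.48 (26.9-fold, adjusted p = 8.8e-05). RATD exceeded RAPD by 4.02 ± 0.48 (16.2-fold, adjusted p = 0.00177). Among neighbours in the order TD, RATD, PD, SC and RAPD, the step from RATD to PD was called (2.38 ± 0.48, adjusted p = 0.00315). The second probe set of Clec4n gave 4.95 ± 0.59 for TD over SC and 4.33 ± 0.59 for RATD over RAPD. On that probe set RAPD replicate 1 was at 5.98, and RAPD replicate 2 (4.95) lay below the dim-signal level of its array (5.01).

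Clec4d and Clec4e, which lie side by side on chromosome 6 and whose products form receptors for mycobacterial glycolipid, ran together. Clec4d stood at 12.19 and 12.25 in SC, 11.54 and 12.83 in PD, 13.91 and 13.47 in TD, 8.70 and 7.77 in RAPD and 12.80 and 9.99 in RATD. Clec4e stood at 11.97 and 11.98 in SC, 10.67 and 12.00 in PD, 12.99 and 12.17 in TD, 8.37 and 7.76 in RAPD and 11.92 and 10.17 in RATD. Both RAPD arrays lay below the other 8 for either gene, and RATD replicate 2 was the next lowest. Of the groups next to each other in level, TD, SC, PD and RATD did not differ in any called step, and the step from RATD to RAPD was called for Clec4d (3.16 ± 0.69, adjusted p = 0.0316) and Clec4e (2.98 ± 0.53, adjusted p = 0.014).

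As a measure of likeness, each gene's log2 values were centred on their own mean over the 10 arrays, and the root mean square difference from every other gene tested was taken. By it Clec4e was the nearest of the 14581 genes to Clec4d, and Clec4d the nearest to Clec4e, at 0.453. Pcdh7, a protocadherin gene, came next for both (0.609 and 0.485), followed by S100a4 for Clec4d (0.635) and Haao for Clec4e (0.508). Clec4n, which lies next to Clec4d on the chromosome, was farther from Clec4d (1.55) and nearer to Clec7a (0.965). The genes nearest to Clec4n were Dse (0.453), Atf3 (0.468) and Wfdc17 (0.54), and those nearest to Clec7a were Filip1l (0.428), Ifi209 (0.589) and Atf3 (0.603). The arrays are 5 groups of 2, so these distances rest largely on group means. They also depend on how widely a gene itself varied, so distances from different receptor genes are not directly comparable. The root mean square of a gene's own centred values was 1.95 for Clec4d, 1.65 for Clec4e, 2.30 for Clec4n and 2.07 for Clec7a. It was 0.658 for Clec5a and 0.570 for Clec4a2, whose nearest genes are given below.

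Clec5a, the DAP12-coupled receptor, was bright on every array. Its signal was 12.69 and 12.67 in SC, 11.46 and 11.61 in PD, 13.37 and 13.23 in TD, 12.09 and 11.65 in RAPD and 12.95 and 12.11 in RATD. The TD arrays were the highest and the PD arrays the lowest, with no overlap between these groups. TD exceeded PD by 1.76 ± 0.25 (3.39-fold, adjusted p = 0.00038). No step between neighbours in the order TD, SC, RATD, RAPD and PD was called. Ctso, a lysosomal protease gene, was nearest to Clec5a (0.13), before Zfp729a (0.155) and Septin10 (0.158).

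Clec4a2, the inhibitory receptor, had another order of groups. Its signal was 12.14 and 12.28 in SC, 12.94 and 12.59 in PD, 13.09 and 13.22 in TD, 13.55 and 13.88 in RAPD and 13.32 and 13.80 in RATD. The SC arrays were the lowest and the 4 ATRA arrays the highest. Neighbours in the order RAPD, RATD, TD, PD and SC did not differ in any called step, while RAPD exceeded SC by 1.51 ± 0.20 (2.85-fold, adjusted p = 0.00101). Ypel3 (0.132), Irf1 (0.132) and Zfand3 (0.161) were nearest to it.

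**Figure D2:**
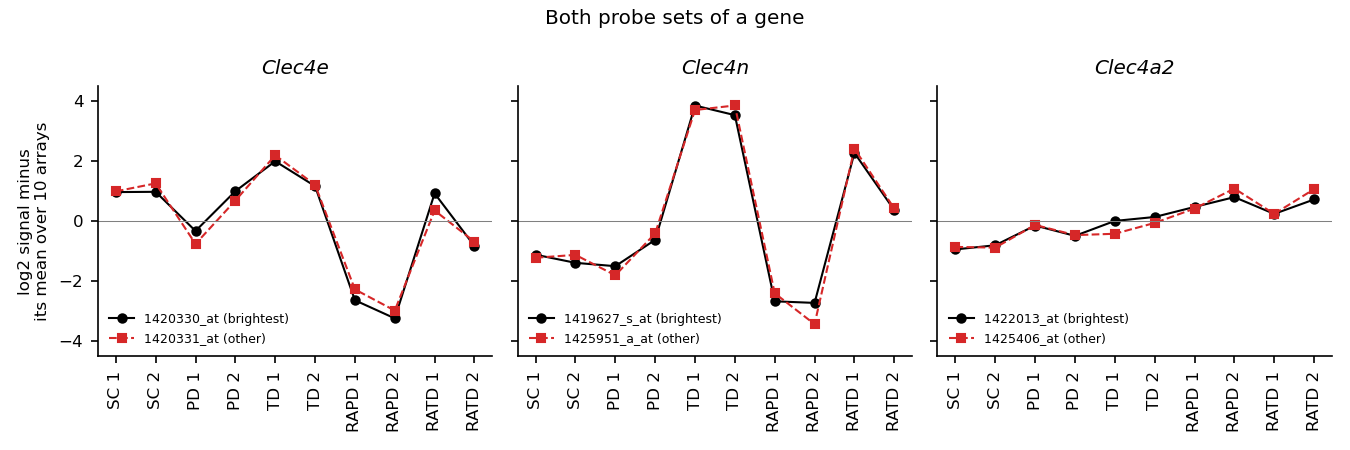
Log2 signal minus its own mean over the 10 arrays (y axis) for the 10 arrays in group order (x axis), for both probe sets of Clec4e, Clec4n and Clec4a2; lines join the arrays only to guide the eye. The root mean square difference between the 2 probe sets was 0.307, 0.306 and 0.21.

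The probe sets of Clec4d and of Clec4n that were used are of a kind that its maker marks as matching more than 1 transcript. Clec4a2 has close relatives beside it, and 1 further probe set carried its symbol together with that of Clec4b1 and was not used. Cross-reaction within this cluster was not tested.

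The untreated subsets were compared first, to describe how the receptors differ among them. In PD against SC, 2 of 6 genes were lower and 0 higher (of all genes 25.8% were called, 15.2% lower and 10.6% higher). Clec5a fell by 1.14 on the log2 scale (SE 0.25, adjusted p = 0.00585) and Clec7a by 1.24 (SE 0.38, adjusted p = 0.0318), beside a median of all genes of 0.20. The other 4 were at -0.03 ± 0.69 (Clec4d), -0.64 ± 0.53 (Clec4e), 0.19 ± 0.48 (Clec4n) and 0.55 ± 0.20 (Clec4a2, adjusted p = 0.0589). The sign of Clec4d turned with a common 75th percentile as scaling (0.37). Clec4a2 was called with that scaling (0.96, adjusted p = 0.00479) and with any 1 of the 4 ATRA arrays left out (adjusted p 0.0321 to 0.0442). Clec7a lost its call with any 1 of the SC or PD arrays left out (adjusted p 0.0782 to 0.19) or after quantile normalization (0.0775), and Clec5a was not called without PD replicate 1 (adjusted p = 0.0665).

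In TD against SC, 3 of 6 genes rose and 0 fell (of all genes 8.15% were called, 4.96% higher and 3.20% lower). Clec4n and Clec7a rose as given above, and Clec4a2 rose by 0.95 ± 0.20 (adjusted p = 0.0128), while its second probe set gave 0.63 ± 0.29 (adjusted p = 0.231). Clec4d (1.47 ± 0.69, adjusted p = 0.245), Clec5a (0.62 ± 0.25, adjusted p = 0.159) and Clec4e (0.61 ± 0.53, adjusted p = 0.563) did not pass the test, although their TD arrays lay above both SC arrays. The median of the 6 genes was 1.21 against -0.04 over all genes. Clec4a2 lost its call with any 1 of the 4 arrays compared left out (adjusted p 0.0607 to 0.126). Clec4d and Clec5a were called when either RATD array was left out (adjusted p 0.0326 and 0.0332, and 0.0405 and 0.0413), or with array weights or only these 4 arrays in the fit.

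In TD against PD, 3 of 6 rose and 0 fell (of all genes 35.3% were called, 18.0% higher and 17.2% lower), namely Clec7a, Clec4n and Clec5a. Clec4d stood at 1.50 ± 0.69 (adjusted p = 0.118), Clec4e at 1.25 ± 0.53 (adjusted p = 0.0889, and 1.74 ± 0.49 with adjusted p = 0.0165 by its second probe set) and Clec4a2 at 0.39 ± 0.20 (adjusted p = 0.154), which turned to -0.06 with a common 75th percentile and was called after quantile normalization (0.66, adjusted p = 0.00813). The median of the 6 was 1.63 against -0.13 over all genes. Without either RATD array Clec4d (adjusted p 0.00971 and 0.00987) and Clec4e (0.0267 and 0.0271) were called too, and without PD replicate 2 Clec4e was (0.0346).

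Genes of monocytes moved with the height of Clec7a and Clec4n in TD. Of 11 tested genes on a monocyte list of 12, 10 were higher in TD than in SC and 0 lower, and 10 higher and 0 lower in TD than in PD (8.15% and 35.3% of all genes were called). The summed signal of the list, as log2, was 14.97 to 15.06 in SC, 14.42 to 14.76 in PD, 16.85 to 16.93 in TD, 14.92 to 15.47 in RAPD and 16.31 to 16.77 in RATD. Csf1r, the receptor that defines this lineage, was at 10.67 and 10.41 in SC and at 13.61 and 13.79 in TD. The macrophage list had 3 of 10 tested members higher and 1 lower in TD than in SC, and 6 higher and 1 lower in TD than in PD. Of its defining genes, Adgre1 was bright on every array (9.47 to 11.68) and highest on the TD arrays. C1qb lay between 2.89 and 6.58, and C1qa was below the dim-signal level on both arrays of SC, PD and RAPD (1.91 to 3.50). The part of the genes of both lists in the receptor levels was not tested.

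The ATRA response was then examined by comparing RAPD with PD and RATD with TD. In PD cells, 2 of the 6 receptor genes fell and 1 rose (of all genes 8.04% were called, 3.19% lower and 4.86% higher). Clec4d fell by 3.95 (SE 0.69, 15.4-fold, adjusted p = 0.012) and Clec4e by 3.27 (SE 0.53, 9.65-fold, adjusted p = 0.00828), the second probe set of Clec4e falling by 2.59 (SE 0.49, adjusted p = 0.0155). Clec4a2 rose by 0.95 ± 0.20 (1.94-fold, adjusted p = 0.0192), and by 1.05 ± 0.29 in its second probe set (adjusted p = 0.0482). Clec4n was at -1.63 ± 0.48 (adjusted p = 0.0583), with both RAPD arrays below both PD arrays, and Clec5a (0.33 ± 0.25) and Clec7a (0.60 ± 0.38) were not called.

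These calls rest on few arrays. Without PD replicate 2, none of the 3 was called by limma (Clec4d adjusted p = 0.0701, Clec4e 0.0542, Clec4a2 0.105), with log2 differences of -3.30, -2.61 and 0.78. Clec4d and Clec4a2 were also not called without PD replicate 1 (0.0526 and 0.089) or RAPD replicate 1 (0.055 and 0.0566). Clec7a was called higher without RAPD replicate 2 (1.33, adjusted p = 0.00884) and turned to -0.14 without RAPD replicate 1. Clec4n was called lower without either RATD array (adjusted p 0.0053 and 0.00485), and also after quantile normalization, with a common 75th percentile and with only the PD and RAPD arrays in the fit.

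In TD cells 0 of the 6 were called in RATD against TD by limma. Of all genes 0.288% were called there, 0.192% higher and 0.0960% lower. At an unadjusted p under 0.05 in that test, 5 of the 6 receptor genes passed, beside 1562 of all 14581 genes. The differences were -2.37 ± 0.48 for Clec4n (adjusted p = 0.0739, 95% interval -3.42 to -1.31), -2.30 ± 0.69 for Clec4d (adjusted p = 0.241), -1.53 ± 0.53 for Clec4e, -0.93 ± 0.38 for Clec7a, -0.77 ± 0.25 for Clec5a and 0.41 ± 0.20 for Clec4a2. For the first 5 of these genes both RATD arrays lay below both TD arrays. RATD replicate 1 was the array nearest to the TD arrays. With it left out, RATD stood below TD by 3.70 for Clec4d, 3.32 for Clec4n, 2.41 for Clec4e and 1.19 for Clec5a. In that fit RATD is 1 array whose spread is taken from the other groups. On all 10 arrays, limma called Clec4n lower after quantile normalization (-2.50, adjusted p = 0.0499) and with a common 75th percentile (-2.28, adjusted p = 0.0175). It did so with array weights too (adjusted p = 0.0446).

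The ATRA difference in TD minus that in PD was not called for any of the 6 genes by limma. Of all genes 0.240% were called, 0.0617% higher and 0.178% lower. At an unadjusted p under 0.05, 3 of the 6 receptor genes passed for this difference, beside 2174 of all 14581 genes. It was 1.74 ± 0.74 for Clec4e (95% interval 0.11 to 3.36), 1.65 ± 0.98 for Clec4d (-0.49 to 3.80), -0.73 ± 0.68 for Clec4n, -1.10 ± 0.35 for Clec5a, -1.52 ± 0.54 for Clec7a and -0.55 ± 0.28 for Clec4a2. Without RAPD replicate 2, Clec7a (-2.26, adjusted p = 0.00626) and Clec5a (-1.33, adjusted p = 0.0474) were called, and without RATD replicate 2 Clec4d was (3.06, adjusted p = 0.0435) and Clec4n turned to 0.22.

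After ATRA the subsets stood apart in RATD against RAPD, where 4 of 6 genes were higher and 0 lower (of all genes 4.78% were called, 2.65% higher and 2.13% lower). These were Clec4n, Clec7a, Clec4d and Clec4e, with the values given above. Clec5a was at 0.66 ± 0.25 (adjusted p = 0.132), and called without RATD replicate 2 (1.08, adjusted p = 0.0143). Clec4a2 was at -0.15 ± 0.20, and its sign turned after quantile normalization (0.02) and without RAPD replicate 2 or RATD replicate 1. Clec4d was not called without RATD replicate 1 (1.75, adjusted p = 0.0721), RAPD replicate 2 (2.69, adjusted p = 0.226) or any 1 of the SC or TD arrays (0.0585 to 0.06), nor with array weights (0.0697) or only these 4 arrays in the fit (0.133). Clec4e was not called without RAPD replicate 2 (2.68, adjusted p = 0.128). Against untreated TD, RAPD was lower for 5 of the 6 genes and higher for 0 (of all genes 20.1% were called, 10.2% lower and 9.88% higher). The pairs that cross subset and treatment completed the picture. RAPD against SC had 3 of the 6 genes lower (Clec4d, Clec4e and Clec5a) and 1 higher (Clec4a2), where 14.1% of all genes were called, 7.28% lower and 6.82% higher. RATD against SC had 3 higher and 0 lower (Clec4n, Clec7a and Clec4a2), where 5.55% were called, 3.63% higher and 1.92% lower. RATD against PD had these and Clec5a higher and 0 lower, where 32.9% were called, 16.8% higher and 16.1% lower.

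**Figure D3:**
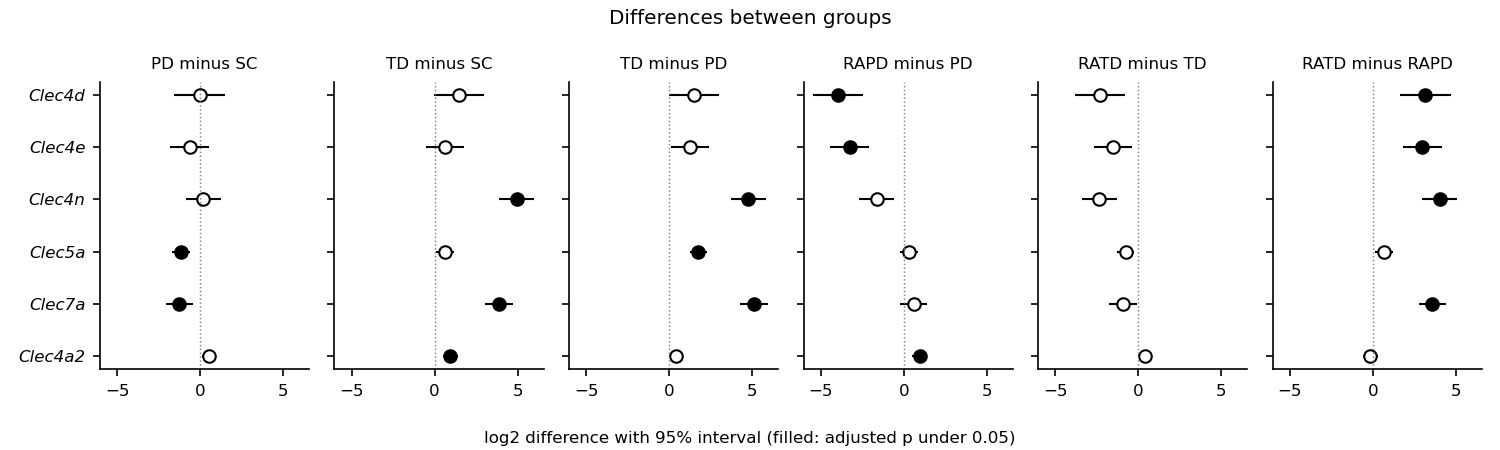
Log2 difference (x axis) of each receptor gene (rows) in 6 comparisons (panels); points are the fitted difference of the groups named above the panel, lines its 95% interval, and filled points an adjusted p under 0.05. Clec4d and Clec4e are called lower in RAPD minus PD (-3.95 and -3.27) and Clec7a and Clec4n higher in TD minus PD (5.11 and 4.75), and no point is filled in RATD minus TD.

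Some neutrophil genes rose with ATRA in both subsets, while the fall of Clec4d and Clec4e was called in PD cells only. Of 10 tested genes on a neutrophil list of 12, 4 were higher and 0 lower in RAPD than in PD, and 2 higher and 0 lower in RATD than in TD (8.04% and 0.288% of all genes were called). The list also had 6 genes higher and 0 lower in PD than in SC, where 25.8% of all genes were called and Clec4d and Clec4e were not. The summed signal of the list was 17.04 to 17.10 in SC, 17.53 to 17.63 in PD, 17.76 to 18.13 in RAPD, 17.14 to 17.65 in TD and 17.75 to 18.11 in RATD. Ltf, which encodes lactoferrin, stood at 8.12 and 8.27 in SC, 11.37 and 10.76 in PD, 14.63 and 15.02 in RAPD, 11.28 and 10.01 in TD and 13.42 and 15.05 in RATD. Camp, the other defining gene measured, changed little between PD (15.02 and 14.84) and RAPD (14.83 and 15.19). RATD replicate 2, lower in Clec4d, Clec4e and Clec4n than RATD replicate 1, had the higher Ltf of the 2 arrays. In PD and in RAPD too, the array with the higher Ltf was the lower in these receptor genes. In TD the array with the higher Ltf was the higher in all of them, and in SC it was so for Clec4d and Clec4e. The part of the neutrophil genes in the receptor levels was not tested.

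The 3 adaptors of the receptors differed by less than 1 log2 unit in each of the 6 comparisons. Fcer1g and Tyrobp were called higher in TD than in SC (0.79 ± 0.16, adjusted p = 0.013, and 0.75 ± 0.17, adjusted p = 0.0204). Fcer1g was higher in TD than in PD too (0.55 ± 0.16, adjusted p = 0.0219). Hcst, the adaptor DAP10, was lower in TD than in PD (-0.86 ± 0.20, adjusted p = 0.00571), and higher in PD than in SC, as was Tyrobp (0.70 ± 0.20 and 0.71 ± 0.17). In RAPD against PD, where Clec4d and Clec4e fell, 0 of the 3 adaptors were called by limma, where 8.04% of all genes were. At an unadjusted p under 0.05, 0 of the 3 adaptors passed, beside 3874 of all 14581 genes. The median difference of the adaptors was -0.0045. Syk, the kinase that Fcer1g and Tyrobp recruit, is a gene outside the naming rule, chosen after its values were seen. It stood between 9.94 and 11.17 on the 10 arrays and was not called in any of the 6 comparisons. By the moderated F test over the 5 groups it was called (adjusted p = 0.0285), with 9.94 and 10.08 in SC, 10.74 and 11.17 in RAPD and 10.57 and 11.04 in RATD.

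Of 15 tested kinases and other early signalling genes, 3 were higher and 0 lower in TD than in SC, 2 higher and 4 lower in PD than in SC, and 1 higher and 1 lower in RAPD than in PD, where 8.15%, 25.8% and 8.04% of all genes were called. Fgr, a SRC family kinase, rose by 3.88 ± 0.19 in TD over SC (adjusted p = 1.14e-06) and Prkcd, the kinase that acts on CARD9, by 1.49 ± 0.15 (adjusted p = 0.000122). Fyn fell by 1.42 in RAPD against PD (SE 0.38, adjusted p = 0.043). Of 7 phosphatases and ubiquitin ligases that restrain the pathway, 3 were lower in PD than in SC and 3 higher in TD than in PD, in each case Ptpn22, Cbl and Cblb, while 15.2% of all genes were called lower in the first comparison and 18.0% higher in the second. Ptpn6, which binds the inhibitory motif of Clec4a2, rose by 0.66 ± 0.18 in TD over SC (adjusted p = 0.0473).

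Card9 had no probe set with its symbol in the annotation used here. Of 17 tested genes of the CARD9 complex and NF-κB, 4 were higher and 0 lower in TD than in SC, 5 higher and 1 lower in TD than in PD, and 3 higher and 1 lower in RAPD than in PD. Of all genes 8.15%, 35.3% and 8.04% were called in these comparisons, so the count in TD against PD is that of the background. Irf5, a transcription factor downstream of Clec7a, stood at 5.73 and 5.77 in SC, 6.16 and 5.99 in PD, 9.29 and 9.55 in TD, 6.17 and 5.82 in RAPD and 9.66 and 9.05 in RATD, again with the 4 arrays of the TD subset above the rest. Malt1, the protease of the complex, was lower in PD than in SC (-1.77 ± 0.31, adjusted p = 0.00236) and higher in RAPD than in PD (2.17 ± 0.31, adjusted p = 0.00409).

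Of 23 listed genes that these receptors are known to induce, 16 were tested, and 7 of these were higher and 0 lower in TD than in SC (8.15% of all genes were called), with a median of 1.36 against -0.04 over all genes. Tnf rose by 2.10 ± 0.25 in TD over SC (adjusted p = 0.000347) and Ccl3, a chemokine, by 1.41 ± 0.32 (adjusted p = 0.0205). In RAPD against PD, with 8.04% of all genes called, 3 were higher and 1 lower: Il1rn, the interleukin-1 receptor antagonist, rose by 3.59 ± 0.40 (adjusted p = 0.0011), Tnfaip3 rose by 0.91 ± 0.21 (adjusted p = 0.0312) and Pla2g4a, a phospholipase gene outside the naming rule and chosen after its values were seen, by 1.20 ± 0.31 (adjusted p = 0.0412), and Ccl3 fell by 1.41 (SE 0.32, adjusted p = 0.0284). Ccl3 was the 1 gene of the list called in RATD against TD, at -2.37 ± 0.32 (adjusted p = 0.017). Of 14 tested partners of the receptors, 8 were higher and 1 lower in TD than in SC, where 8.15% of all genes were called. Among them Tlr2, which acts with Clec7a, rose by 2.41 ± 0.36 (adjusted p = 0.00174), and the integrin gene Itgb2 rose by 2.92 ± 0.23 (adjusted p = 1.85e-05).

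**Figure D4:**
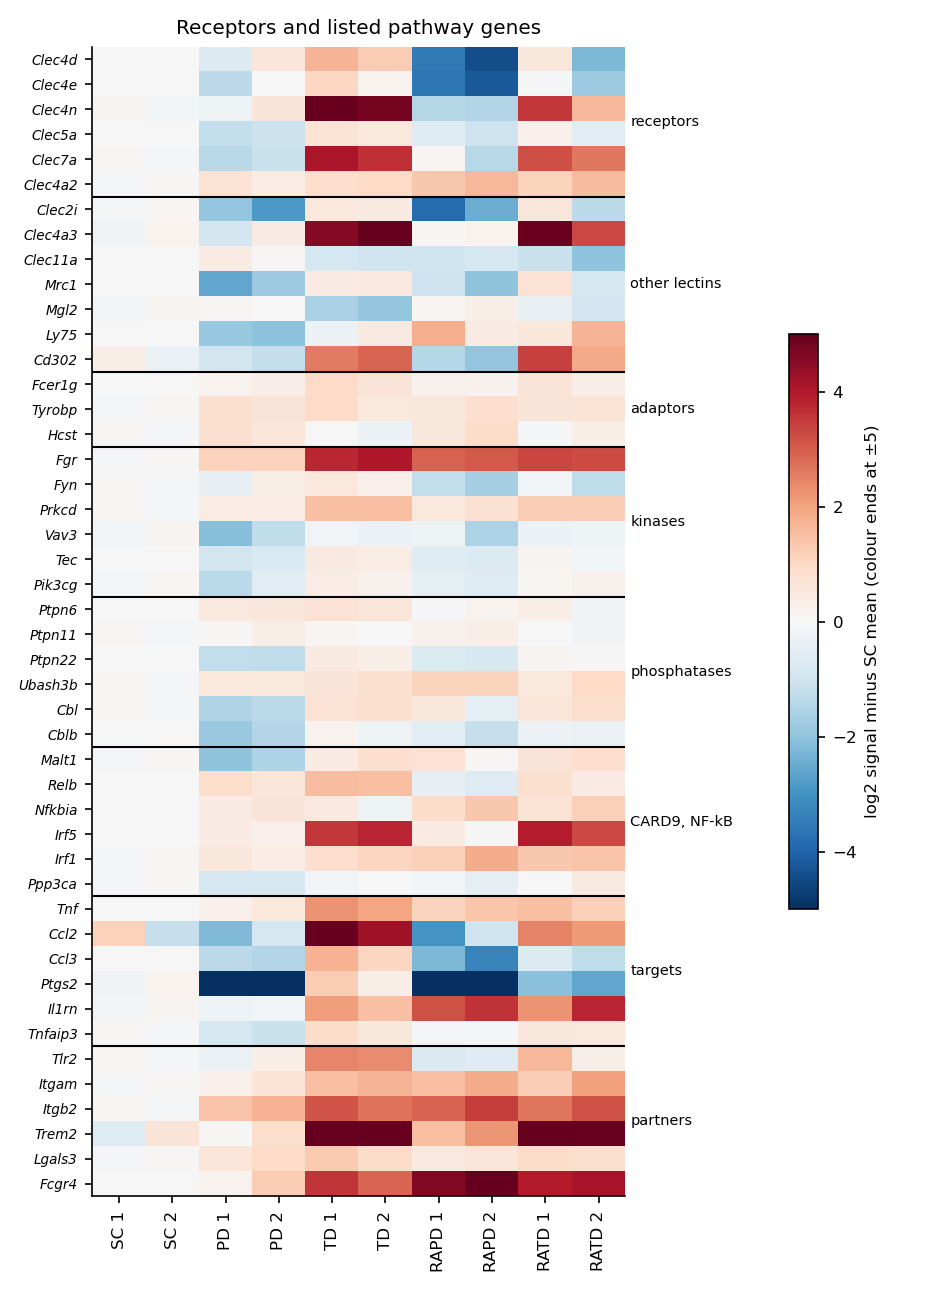
Log2 signal minus the mean of the SC arrays (colour, ending at 5 in either direction) of the 6 receptor genes and of listed pathway genes (rows) on the 10 arrays (columns). Clec4n, Clec7a, Clec4a3, Cd302, Irf5 and Trem2 are red in TD and RATD, and Clec4d and Clec4e are blue in RAPD, while the adaptor rows stay pale.

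The other lectin receptor genes moved in several ways. Of 42 listed genes 25 were tested, and 6 were higher and 2 lower in TD than in SC, 8 higher and 2 lower in TD than in PD, 2 higher and 1 lower in RAPD than in PD, and 4 higher and 0 lower in RATD than in RAPD. Of all genes 8.15%, 35.3%, 8.04% and 4.78% were called in these comparisons, so the counts in TD against PD and in RAPD against PD lie near the background. The gene lower in RAPD than in PD was Clec11a, a secreted lectin, at -1.16 ± 0.25 (adjusted p = 0.0209), with a RAPD mean of 12.18 beside 12.16 in TD. Clec4a3, an inhibitory relative of Clec4a2, stood at 6.05 and 6.44 in SC, 5.34 and 6.67 in PD, 10.78 and 11.57 in TD, 6.33 and 6.42 in RAPD and 11.19 and 9.56 in RATD, unlike Clec4a2. Cd302 rose by 2.74 ± 0.43 in TD over SC (adjusted p = 0.00243). Mgl2, a galactose-type lectin of macrophages, fell by 1.79 (SE 0.23, adjusted p = 0.000626). Ly75, an endocytic receptor, was lower in PD than in SC (-1.99 ± 0.45, adjusted p = 0.0079) and higher in RAPD than in PD (3.10 ± 0.45, adjusted p = 0.00488).

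All 7 genes lie on chromosome 6 in the RefSeq gene table, in 3 runs: Clec5a alone, Clec4a2 to Clec4e, and Clec12a to Clec7a. Between the members of a run and up to 2 genes on either side the table lists 17 other protein-coding genes, of which 6 were tested. Neighbours did not share a pattern throughout. Olr1, the oxidised lipoprotein receptor next to Clec7a, stood at 11.75 and 11.87 in SC, 9.64 and 9.47 in PD, 11.64 and 10.99 in TD, 12.09 and 10.69 in RAPD and 11.40 and 11.72 in RATD, so that its lowest arrays were those of PD. Cd69 was lower in PD than in SC (-2.26 ± 0.38, adjusted p = 0.00219), as was Mgam beside Clec5a (adjusted p = 0.00636). Clec4b1, next to Clec4a2, was below the dim-signal level in SC (1.18 and 1.43) and stood at 6.40 and 6.81 in TD. It was called higher in TD by limma (adjusted p = 0.0394), at least 3.43-fold when the 40th percentile is taken as the SC level.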

How the data were processed

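RNA of 10 samples was measured on single-colour Affymetrix-type arrays, 2 for each of 5 groups, which were taken from the sample titles. The submitters' processing notes name MAS5, without a version, as the authors' tool. The range of the deposited numbers is that of log2 signal. Of 45037 probe sets, 34945 had 1 gene symbol, 932 several and 9160 none in the platform annotation. The mean linear signal, trimmed by 2% at either end, was 496.3 to 497.0 on each array, and the values were not scaled further. No detection calls were used here.

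Probe sets above the 40th percentile on at least 2 arrays were kept (32686), and the brightest stood for each of 14581 genes. One limma model (version 3.58.1, R 4.3.3) with the 5 group means was fitted on all 10 arrays (lmFit, then eBayes with an intensity trend; 5 residual and 6.57 prior degrees of freedom), with Benjamini-Hochberg adjustment over all genes in each comparison. With 2 arrays a group, their number limits the precision. The script was tested on simulated data.

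The receptor genes, pathway lists and marker lists were chosen with earlier results of these data known. Named were all receptor genes, up to 6 genes a list by the smallest moderated F p, the 3 defining markers of a cell type list, the 3 nearest profiles and chromosomal neighbours. The replicate numbers are numbers alone in the labels. Alternatives were quantile normalization, a common 75th percentile, no filter on dim probe sets, array weights, only the groups compared, the other probe set, the replicate number as a block, and leaving out each array.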

Additional observations from a re-analysis of the deposited data

Results flagged for a closer look

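Among the genes of the receptor pathway, 2 differed in their ATRA response between the subsets by limma's test of the difference itself. They were 1 of 15 tested kinases and other early signalling genes and 1 of 14 tested partners. None was called among the 3 adaptors, 7 restraining genes, 17 genes of the CARD9 complex and NF-κB, 16 induced genes and 25 other lectin receptor genes tested. Of all genes 0.240% were called. For Fgr, a SRC family kinase, the ATRA difference in TD minus that in PD was -2.41 ± 0.26 on the log2 scale (adjusted p = 0.00457). Its signal was 8.34 and 8.34 in PD, 10.11 and 10.23 in RAPD, 10.94 and 11.17 in TD and 10.52 and 10.44 in RATD, so that it rose by 1.83 ± 0.19 with ATRA in PD and stood at -0.58 in TD. For Fcgr4, an activating Fc receptor that pairs with Fcer1g, the same difference was -3.25 ± 0.49 (adjusted p = 0.0319). Its signal was 6.08 and 7.17 in PD, 10.52 and 10.86 in RAPD, 9.48 and 8.80 in TD and 9.88 and 10.04 in RATD, a rise of 4.07 ± 0.35 in PD and a difference of 0.82 in TD. None of the 6 receptor genes was called in that test. Groups of 2 arrays were too small for a search for single outlying arrays.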

How the results depend on the processing

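Of 42 receptor differences (6 genes in 7 comparisons), 35 to 42 kept their direction and their side of the threshold under each alternative run on all of them other than leaving out an array, and 19 of 21 with the other probe set. After quantile normalization the count of receptor genes called moved to 1 in PD against SC, and to 4 in both TD against PD and RAPD against PD. With a common 75th percentile it moved to 3 in PD against SC and to 4 in RAPD against PD. Array weights gave 3 in PD against SC, 5 in TD against SC, 5 in TD against PD and 3 in RATD against RAPD. Only the groups compared gave these same counts, and 4 in RAPD against PD. In RATD against TD the count moved to 1 after quantile normalization, with a common 75th percentile or with array weights. Neighbours called in the order of levels went from 4 to 8 with array weights. They went to 6 after quantile normalization or with a common 75th percentile. Leaving out 1 array gave 0 to 3 called in PD against SC, 2 to 5 in TD against SC, 3 to 5 in TD against PD, 0 to 4 in RAPD against PD, 0 to 4 in RATD against TD, 2 to 5 in RATD against RAPD, 0 to 2 in the difference of ATRA responses, 6 to 6 for any difference and 3 to 9 neighbours. Signs turned for values that had not been called: Clec4d in PD against SC with a common 75th percentile (0.37) and over leave-one-array-out fits (-0.68 to 0.61), Clec4e (-1.30 to 0.026) and Clec4n (-0.25 to 0.63) there in those fits, Clec4a2 in TD against PD with a common 75th percentile (-0.062), Clec7a in RAPD against PD in those fits (-0.14 to 1.33), Clec4a2 in RATD against RAPD after quantile normalization (0.015), and in those fits (-0.39 to 0.085, with 0.0086 without RAPD replicate 2), and Clec4n in the difference of ATRA responses in those fits (-1.69 to 0.22). The cause was not tested. Over all genes, leaving out 1 array moved the calls from 3766 to between 1191 and 4401 in PD against SC, from 1189 to 398 and 1641 in TD against SC, from 5144 to 2982 and 5587 in TD against PD, from 1173 to 74 and 2556 in RAPD against PD, from 42 to 1 and 856 in RATD against TD, from 697 to 83 and 2453 in RATD against RAPD and from 35 to 3 and 1374 in the difference of responses. The common 75th percentile called 6055 in PD against SC, 1842 in RAPD against PD, 115 in RATD against TD, 1121 in RATD against RAPD and 82 in the difference of responses, and array weights or only the groups compared called 2924 and 3291 in TD against SC and 141 and 58 in RATD against RAPD. Quantile normalization called 75 and no filter 25 in RATD against TD, where only the groups compared gave 0, and no filter and only the groups compared gave 14 and 13 in the difference of responses. The median of all genes in PD against SC was 0.20 as deposited, 0.31 after quantile normalization and 0.60 with a common 75th percentile, with 41.2%, 54% and 72.9% of the calls higher; in TD against PD it was -0.13, -0.32 and -0.58, with 51.1%, 39.5% and 27.7% higher. The share of higher calls went from 60.4% to 34.8% in RAPD against PD, from 55.5% to 39.2% in RATD against RAPD and from 25.7% to 51.2% in the difference of responses with the common 75th percentile. With the replicate number as a block, the receptor genes called in PD against SC stayed at 2 and no receptor call changed, while calls over all genes were 781 in RAPD against PD, 371 in RATD against RAPD and 20 in the difference of responses. Deviations of same-numbered arrays correlated at -0.501 to 0.0995, and the value of -0.501 was that of PD with RAPD. As the replicate numbers are numbers alone, these correlations cannot show whether arrays were paired. No pairing was assumed. With 2 arrays a group the spread of each gene rests largely on the other groups and genes, and dim probe sets carry little signal over background.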

Other observations

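Lists for other marrow cell types gave several patterns, beside 8.15% of all genes called in TD against SC. The dendritic cell list had 4 of 11 tested genes higher and 0 lower in TD than in SC, with Itgax at 6.58 and 5.79 in SC and at 8.22 and 8.47 in TD. It did not follow Clec7a and Clec4n throughout. In TD against PD 2 were higher and 1 lower, where 35.3% of all genes were called. In RATD against RAPD 0 were higher and 0 lower, where 4.78% were called. The summed log2 signal of this list was 10.91 to 11.01 in SC, 11.56 to 11.79 in PD, 11.36 to 11.39 in TD, 10.83 to 10.92 in RAPD and 10.72 to 11.91 in RATD. Of 11 tested promyelocyte and progenitor genes, 7 were lower and 0 higher in TD than in SC, and Kit, a receptor of early cells, stood at 11.35 and 11.41 in SC and at 9.68 and 9.33 in TD. The eosinophil, basophil and mast cell list had 3 of 10 tested genes lower and 0 higher in that comparison. The B cell list had 2 of 7 tested genes higher and 1 lower. Its gene Vpreb1, part of the surrogate light chain, stood at 9.90 and 9.75 in SC, 10.16 and 9.75 in PD and 6.77 and 7.21 in TD. After ATRA it stood at 7.40 and 7.51 in RAPD and 6.77 and 6.45 in RATD. Cd79a was below the dim-signal level on both arrays of every group, and Cd79b lay between 1.53 and 5.89. The summed log2 signal of the T and NK cell list was 8.05 to 8.21 in SC, 8.23 to 8.39 in PD and 8.24 to 8.53 in TD. It was 8.73 to 9.24 in RAPD and 9.06 to 9.93 in RATD. Of its 6 tested genes, 0 were called in TD against SC, RAPD against PD or RATD against TD (8.15%, 8.04% and 0.288% of all genes). In RAPD and in RATD against SC 1 was higher (14.1% and 5.55% of all genes were called). Cd3d stood at 7.79 and 9.54 in RATD, while Cd3e was below the dim-signal level on both arrays. Of 5 tested erythroid genes, 2 were higher and 1 lower in PD than in SC, where 25.8% of all genes were called.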
